A study of Sus scrofa with 24 samples.

Results

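PPARA, PPARG, PPARGC1B, PDK4 and FGF21 are 5 of the 22861 genes listed in the expression table of the Longissimus dorsi (LD) muscle of pigs. They were chosen by name, as genes of the PPAR pathway that answer to fasting, and were matched by Ensembl pig gene ID: ENSSSCG00000000006 for PPARA, ENSSSCG00000011579 for PPARG, ENSSSCG00000014437 for PPARGC1B, ENSSSCG00000015334 for PDK4 and ENSSSCG00000003140 for FGF21. No threshold on a measured value entered the rule. RNA of the LD muscle was sequenced from 24 males, 1 library per animal, in 4 groups of 6. The groups were purebred Iberian pigs (IB) at birth, Iberian x Duroc crossbred pigs (IBxDU) at birth, IB at 4 months and IBxDU at 4 months. The labels give the newborns as postnatal day 1. All animals were born to purebred Iberian sows of one farm, mated to Iberian or to Duroc boars, so the crossbreds have an Iberian dam and a Duroc sire, and no purebred Duroc is compared. The newborns of each genetic type came from fewer litters than animals, so some were littermates, and the labels do not say which. The growing pigs ate the same diet ad libitum and, by the study's text, were slaughtered after a fasting period, while the feeding state of the newborns is not given. Age and feeding state cannot be told apart here.

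PPARA and PPARG are nuclear receptors that bind fatty acids and, paired with a retinoid X receptor (RXR), switch on genes of fatty acid use and storage. PPARA is known as the receptor of the fasted state in liver, heart and muscle, and PPARG as the main regulator of fat cell formation. PPARGC1B is a coactivator that binds such receptors and raises mitochondrial gene expression. PDK4 is a kinase that blocks pyruvate dehydrogenase, which spares glucose and favours the burning of fat, and it is a classic PPAR target in muscle. FGF21 is a secreted hormone, made in liver under the control of PPARA and in muscle under cell stress.

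The library totals lay between 20.0 and 35.9 M reads or read pairs. Levels are given as scaled RPKM, the reads of a gene per kilobase and per M reads of the library after scaling between libraries. The muscle markers ACTA1 and DES were abundant in every library, at no less than 17810 and 2052 scaled RPKM, and the other 4 of 6 markers sought matched no gene by symbol. Marker levels also differed between ages. ACTA1 (-1.81 ± 0.22) and DES (-0.70 ± 0.13) were lower at birth, with ACTA1 at 17810 to 59401 in newborns and 64234 to 244060 in growing pigs. Of 4 slow fibre markers 3 were lower and 1 higher at birth, and of 3 erythroid markers 2 were higher, with a summed level of 161 to 2067 in newborns and 46.3 to 247 in growing pigs. These are log2 differences by limma ± SE, and the part of these markers in the differences of the 5 genes was not tested. Scaling bears on the comparison of ages, because its factors, 1.02 to 1.63 in newborns, were only 0.511 to 0.976 in growing pigs. Without it the median of all genes moved from 0.10 to 0.91 on the log2 scale of birth over 4 months, so every difference between ages is relative to the scaling. This holds for the markers too. Without scaling 1 of the 2 muscle markers was lower at birth and 0 higher. With quantile normalization 0 were lower and 1 higher, and of the 4 slow fibre markers 0 were lower and 1 higher. The 2 higher erythroid markers stayed 2 with quantile normalization. In 8 libraries the listed genes took 99.3 to 99.5% of the total, against 88.0 to 96.2% in the other 16. Of these 8, 4 were IBxDU and 1 was IB at birth, and 2 were IBxDU and 1 was IB at 4 months, so this difference between libraries runs partly along with genetic type among the newborns.

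At birth, 3 of the 5 genes were expressed more than at 4 months. PDK4 was 17.5-fold, PPARGC1B 4.56-fold and PPARA 2.66-fold higher by limma. Throughout, a gene is called where its unadjusted p is 0.01 or less and it differs 1.5-fold or more, which are the study's own limits. In this comparison 45.4% of the 12180 genes tested were called, 24.5% as higher and 20.9% as lower at birth, so calls were common among all genes. FGF21 and PPARG were also higher on average, and both passed a Benjamini-Hochberg adjusted p under 0.05 over all genes, as 65.6% of genes did, but neither reached the limit on p. FGF21 was tested only because of its level in newborns, since its mean at 4 months was under the filter of 0.5 RPKM.

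**Figure D1:**
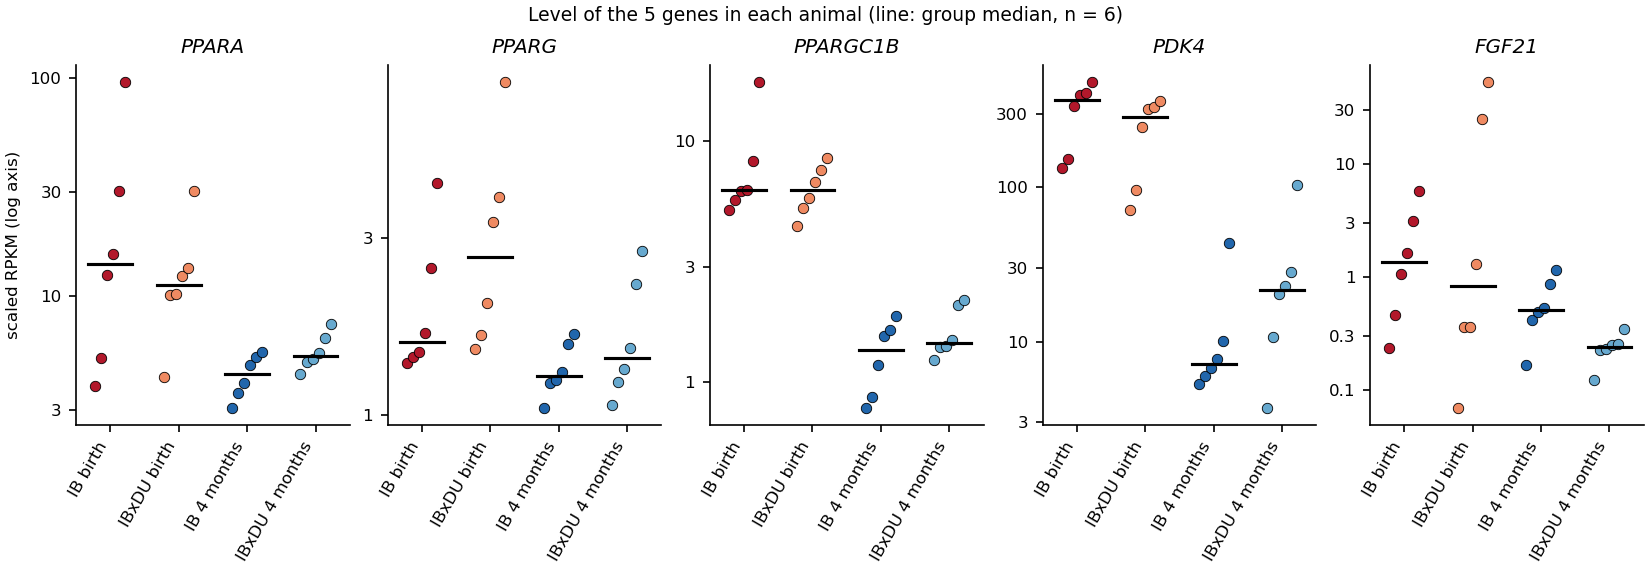
Level of each of the 5 genes in every animal, as scaled RPKM on a log axis, by group, with a line at the group median (n = 6). The newborns lie above the older pigs without overlap for PPARGC1B, and FGF21 spans 0.0689 to 53.4 among the IBxDU newborns.

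PPARA, the receptor of the fasted state, ran in IB newborns from 3.87 through a median of 14.01 to 96.6 scaled RPKM. In IBxDU newborns it ran from 4.26 through 11.3 to 30.2. At 4 months it ran from 3.05 through 4.39 to 5.54 in IB and from 4.39 through 5.31 to 7.44 in IBxDU. The 2 newborn groups reached far above the growing pigs, but their lowest animals, IB 323 and IBxDU 412, lay among them, so the ages overlapped. Group means were 27.3 ± 35.2 in IB and 13.4 ± 8.82 in IBxDU at birth, and 5.65 ± 1.10 in IBxDU and 4.37 ± 0.986 in IB at 4 months (SD, n = 6), with neighbours in this order overlapping throughout. Over the 12 newborns and 12 growing pigs the log2 difference was 1.41 ± 0.36 (SE; limma, adjusted p = 0.00139), and it was called under each alternative tried, with 1.15 without IB 503. That newborn, the highest in PPARA, also had the most of all 3 erythroid markers, with HBB at 2037 scaled RPKM against 160 to 623 in the other 11 newborns, ALAS2 at 21.2 against 1.43 to 4.65 and SLC4A1 at 8.84 against 0.0283 to 0.270. Over the 12 newborns r with PPARA was 0.35 for HBB, 0.54 for ALAS2 and 0.56 for SLC4A1, and without the 2 newborns highest in PPARA it was -0.33, -0.044 and -0.39. Their part in the PPARA level was not tested. Within a type the call was narrow. In IB the difference was 1.79 ± 0.60 (limma, adjusted p = 0.0196) and in IBxDU 1.03 ± 0.34 (limma, adjusted p = 0.0225), both just inside the limit on p. In IB, where 22.7% of genes were called as higher, the call held on leaving out IB 330 (2.10) or IB 323 (2.18) and was lost on leaving out any other single library, with 1.26 without IB 503. In IBxDU, where 19.4% were, it held without IBxDU 412 (1.31) or IBxDU 702 (1.11) and was lost on leaving out any other, with 0.75 without IBxDU 427.

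PPARG, the regulator of fat cell formation, was low in every group. In newborns it ran from 1.38 through 1.57 to 4.24 scaled RPKM in IB and from 1.504 through 2.66 to 7.95 in IBxDU. At 4 months it ran from 1.04 through 1.28 to 1.65 in IB and from 1.06 through 1.42 to 2.77 in IBxDU. All 4 groups overlapped, and the high newborns were IBxDU 425 with 7.95 and IB 323 with 4.24. In order of the means the groups stood at 3.38 ± 2.43 (IBxDU birth), 2.12 ± 1.12 (IB birth), 1.69 ± 0.671 (IBxDU 4 months) and 1.34 ± 0.227 (IB 4 months; SD, n = 6). Birth over 4 months gave a log2 difference of 0.65 ± 0.24 (limma, adjusted p = 0.0188), just outside the limit on p, and 44.9% of the genes tested had a larger one. It was 0.52 ± 0.25 in IB and 0.79 ± 0.37 in IBxDU, neither of them called. The pooled difference was called without any 1 of IBxDU 426, IBxDU 427, IB 503, IB 345, IB 431 or IB 330 at birth or of IBxDU 758 or IBxDU 708 at 4 months, with values of 0.70 to 0.73.

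PPARGC1B, the coactivator, separated the ages most cleanly of the 5 genes. It ran from 5.17 through 6.25 to 17.7 scaled RPKM in IB newborns and from 4.45 through 6.28 to 8.53 in IBxDU newborns. At 4 months it ran from 0.777 through 1.36 to 1.88 in IB and from 1.23 through 1.46 to 2.18 in IBxDU. Every newborn lay above every growing pig, which held for 6.88% of the genes tested. The group means were 8.21 ± 4.74 in IB and 6.40 ± 1.51 in IBxDU at birth, and 1.64 ± 0.397 in IBxDU and 1.31 ± 0.445 in IB at 4 months (SD, n = 6), with the types of 1 age overlapping. The log2 difference was 2.19 ± 0.18 (limma, adjusted p = 1.29e-10), 2.48 ± 0.29 in IB and 1.90 ± 0.19 in IBxDU, and all 3 were called under each alternative tried. Without the highest newborn, IB 431 with 17.7, the difference in IB was 2.23. Within each type the ages did not overlap either, as in 16.5% of genes in IB and 12.3% in IBxDU. At 4 months the 3 libraries with the higher share of listed genes had 1.88 to 2.18 scaled RPKM and the other 9 had 0.777 to 1.64, and the part of the library in this level was not tested.

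PDK4, the kinase that restrains glucose oxidation, was the most abundant of the 5 genes per length and had the largest difference between ages. In IB newborns it ran from 134 through 365 to 484 scaled RPKM and in IBxDU newborns from 71.4 through 284 to 361. In growing pigs it ran from 5.30 through 7.22 to 43.7 in IB and from 3.70 through 21.5 to 103 in IBxDU. The newborns of IB lay above all growing IB pigs, as in 16.5% of the genes tested in IB. In IBxDU the newborns 426 (71.4) and 425 (96.2) lay below the growing pig IBxDU 748 (103). The means were 319 ± 144 in IB and 238 ± 126 in IBxDU at birth and 31.4 ± 36.1 in IBxDU and 13.2 ± 15.0 in IB at 4 months (SD, n = 6). The log2 difference of birth over 4 months was 4.13 ± 0.45 (limma, adjusted p = 1.23e-08), and only 0.328% of the genes tested had a larger one. It was 4.89 ± 0.48 in IB (29.8-fold; limma, adjusted p = 1.83e-06), where 43% of 11988 genes were called, and 3.36 ± 0.66 in IBxDU (10.3-fold; limma, adjusted p = 0.000945), where 38.8% of 12274 genes were called. Among only those libraries whose share of listed genes was lower, which leave 2 IBxDU newborns and 4 growing IBxDU pigs, the difference in IBxDU was 2.61 and was not called.

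FGF21, the hormone, was low or barely read in most animals and high in a few newborns. In IB newborns it ran from 0.233 through 1.34 to 5.70 scaled RPKM. In IBxDU newborns it ran from 0.0689 (2 reads) through 0.825 to 53.4 (1564 reads). At 4 months it ran from 0.166 through 0.512 to 1.16 in IB, on 2 to 26 reads, and from 0.122 through 0.239 to 0.346 in IBxDU, on 2 to 5 reads. Only IBxDU 426 with 53.4 and IBxDU 402 with 24.7 stood far above the rest. The next newborns, IB 345 and IB 503, reached 5.70 and 3.12, and the lowest newborns lay within or below the range of the growing pigs. The means were 13.4 ± 21.9 in IBxDU and 2.03 ± 2.07 in IB at birth and 0.605 ± 0.352 in IB and 0.238 ± 0.0718 in IBxDU at 4 months (SD, n = 6), with neighbours in this order overlapping. The log2 difference of birth over 4 months was 1.87 ± 0.70 (limma, adjusted p = 0.0224), with 1.13 ± 0.61 in IB and 2.60 ± 1.20 in IBxDU, none of them called. Without IBxDU 426 and IBxDU 402, a choice made after their values were seen, the pooled difference was 0.98 and the one in IBxDU 0.51. The pooled difference was called without any 1 of the low newborns IBxDU 425, IBxDU 427, IBxDU 429 or IB 504, with values of 2.04 to 2.17.

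**Figure D2:**
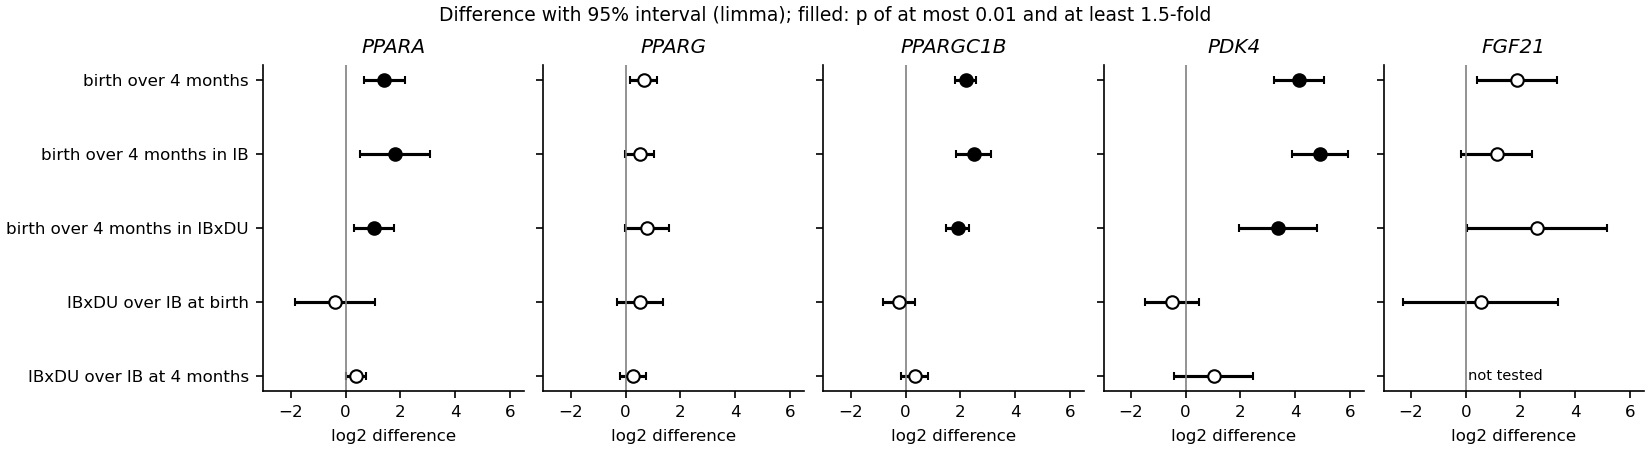
Log2 difference of each gene with its 95% interval from limma in 5 comparisons, with filled points for called genes. PDK4, PPARGC1B and PPARA are called between ages in both types, and no gene is called between genetic types.

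Between IB and IBxDU none of the 5 genes was called at either age. At birth 4.21% of the 12290 genes tested were called and 0 passed an adjusted p under 0.05 by limma, with 2302 at an unadjusted p under 0.05 and 0 at the adjusted limit by limma voom on recovered reads. The log2 differences of IBxDU over IB in newborns were -0.40 for PPARA (95% interval -1.86 to 1.07), 0.53 for PPARG (-0.32 to 1.37), -0.25 for PPARGC1B (-0.83 to 0.34), -0.51 for PDK4 (-1.50 to 0.49) and 0.54 for FGF21 (-2.30 to 3.38). Each of these intervals reaches past a 1.5-fold difference in at least 1 direction. Exact permutation tests, 2-sided, gave p of 0.262 to 0.719, where the smallest p possible was 0.00216.

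At 4 months 4 of the 5 genes were tested, and 1.42% of the 10728 genes tested were called. The log2 differences of IBxDU over IB were 0.37 for PPARA (95% interval 0.01 to 0.73), 0.26 for PPARG (-0.22 to 0.73), 0.33 for PPARGC1B (-0.16 to 0.82) and 1.03 for PDK4 (-0.41 to 2.47). The interval of PPARA leaves out 0, but its adjusted p was 0.57 by limma. Its 2-sided exact permutation test gave p = 0.0606 (adjusted p = 0.303 over the 10 tests of both ages). The mean FGF21 was under the filter in both types and lower in IBxDU on average, with a log2 difference of -0.93 (2-sided exact permutation test, p = 0.0238, adjusted p = 0.238 over the 10 tests of both ages). Its values of 0.122 to 0.346 in IBxDU and 0.166 to 1.16 in IB rest on very few reads. With no filter, over all 12 growing pigs and 16910 genes, FGF21 was tested by limma and was not called. Leaving out IB 903, alone or with the other higher-share libraries, lifted the mean of IB, the type with the higher level, above the filter. With the filter, FGF21 entered the test only there. It was then called, at -1.18 without IB 903 (limma, adjusted p = 0.25) and at -1.20 among the lower-share libraries (limma, adjusted p = 0.156), so these calls rest on which libraries were kept and are given as values only. The lowest FGF21 value in IB was that of IB 903, on 2 reads, and IB 903 was the only IB pig of this age with the higher share of listed genes.

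The difference between ages was not shown to depend on genetic type. The interaction was -1.53 ± 0.87 for PDK4, -0.58 ± 0.36 for PPARGC1B, -0.77 ± 0.74 for PPARA, 0.27 ± 0.47 for PPARG and 1.47 ± 1.43 for FGF21 (SE), in log2 units by limma, with negative values where the difference was smaller in IBxDU. None was called, against 3.99% of the 12441 genes tested, and the adjusted p of these 5 by limma ran from 0.454 to 0.828.

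The 5 genes differed much in how far animals of one age lay apart. In newborns the SD of the log2 level between animals of one type was 2.64 for FGF21, and only 0.474% of 12441 genes had a larger one. It was 1.35 for PPARA (3.13% of genes larger), 0.91 for PDK4 (8.18%), 0.76 for PPARG (12.5%) and 0.52 for PPARGC1B (29.2%), against a median of 0.38 over all genes. At 4 months PDK4 spread the most, with 1.37 (2.19% of genes larger), and FGF21 followed with 0.60, on few reads. PPARA was at 0.30, PPARG stood at 0.39 and PPARGC1B at 0.41, near the median of 0.34. PPARA was thus the 1 gene of the 5 below the median of all genes at 4 months, and all 5 were above it in newborns.

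**Figure D3:**
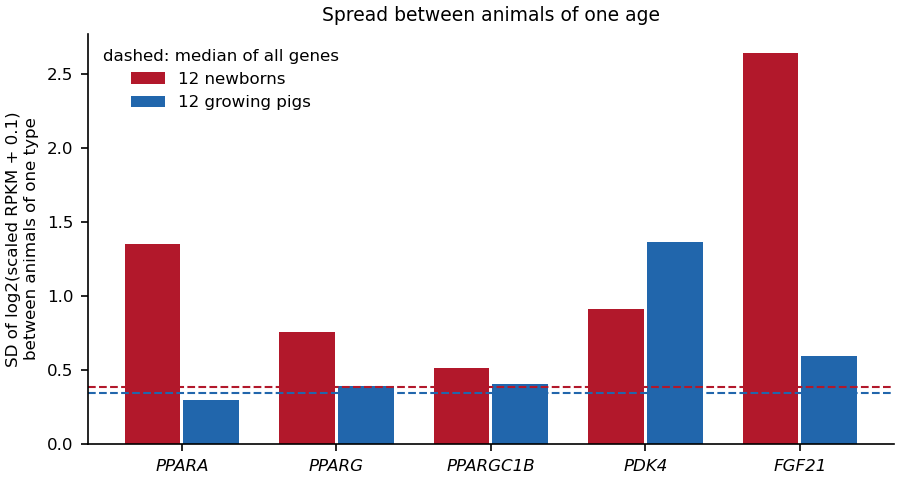
SD of log2(scaled RPKM + 0.1) between animals of one genetic type for the 5 genes, in 12 newborns and 12 growing pigs, with dashed lines at the median of all genes. FGF21 (2.64) and PPARA (1.35) stand far above the median of 0.38 in newborns, and PDK4 (1.37) above that of 0.34 at 4 months.

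Co-variation was tested over the 12 newborns, with each log2 level taken from the mean of its genetic type. None of the 10 pairs passed an adjusted p under 0.05 by permutation within the types, 0 had an unadjusted p under 0.05, and 0 passed by Spearman's rho. The smallest p was that of PPARA and PDK4, with r = -0.49 and rho = -0.36 (permutation p = 0.0915 and 0.245, adjusted p = 0.755 and 0.817 over 10 pairs). PPARA and FGF21, receptor and hormone, had r = 0.02 and rho = -0.02 (permutation p = 0.952 and 0.951). PDK4 and FGF21 had r = -0.20 (permutation p = 0.606). The others lay between -0.45 (PPARG and FGF21) and 0.01 (PPARA and PPARGC1B). With 12 animals only strong relations can pass such a test, and these values do not show that the genes are unrelated.

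PPARA and PDK4 stood differently in the 2 types of newborns. In IB the animal with the most PPARA, IB 503 with 96.6 scaled RPKM, had the least PDK4 with 134. IB 504 followed with 30.4 of PPARA and 153 of PDK4, and IB 431 had 15.6 and 395. IB 345 had 12.4 of PPARA and 335 of PDK4, IB 330 had 5.21 and 411, and IB 323 had the least PPARA with 3.87 and the most PDK4 with 484. So in IB newborns the receptor was high where its target was low, with r = -0.92 and rho = -0.94 (exact p of r = 0.00417, adjusted p = 0.167 over all 40 relations within a type at both ages), and without IB 503 and IB 323 r was -0.81 over 4 animals. Of these 40 relations 2 had an exact p under 0.05, near the number that chance gives at that limit. In IBxDU newborns r was 0.02 (exact p = 0.963). The lowest PDK4 there, 71.4 in IBxDU 426, went with 13.5 of PPARA, and the highest, 361 in IBxDU 427, with the highest PPARA of 30.2. Over all newborns r was -0.24 without IB 503 and IB 323, and -0.69 in the 7 newborns of the lower share. The difference between the types was not tested. Over the 12 newborns r with PPARA was above 0 for 3 of the 23 gene IDs of PPAR targets, a list without PDK4. The median was -0.34, against -0.03 over all genes. The 2 IDs of ACADVL gave 0.76 and -0.55. Slow fibre (-0.65), adipocyte (-0.54), skeletal muscle (-0.48) and liver markers (-0.38) had lower medians, so the low r was not particular to PPAR targets. Endothelium stood at -0.30, macrophages at -0.00016 and erythroid markers at 0.54. In the growing pigs 16 of the 23 were above 0, at a median of 0.18.

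**Figure D4:**
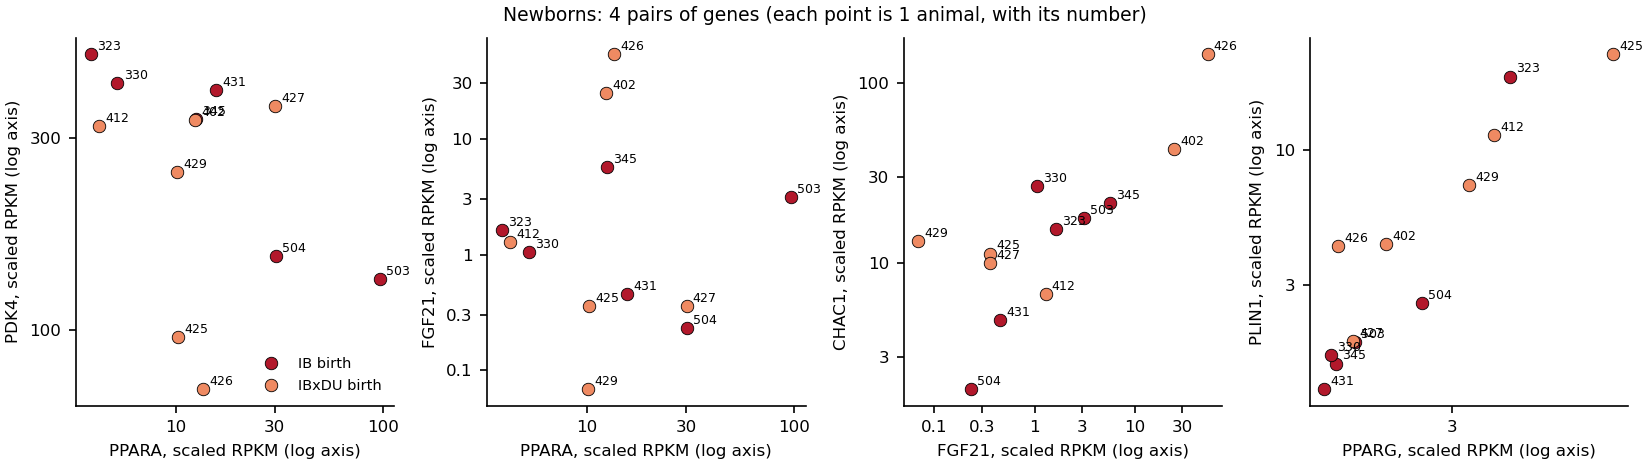
Scaled RPKM on log axes of PPARA against PDK4 and FGF21, of FGF21 against CHAC1 and of PPARG against PLIN1 in the 12 newborns, with the number of each animal. In IB newborns PDK4 goes from 484 to 134 as PPARA goes from 3.87 to 96.6, and IBxDU 426 and IBxDU 402 are highest for both FGF21 and CHAC1.

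In the growing pigs none of the 10 pairs passed either, at adjusted p of 0.399 or more by permutation, and 0 had an unadjusted p under 0.05. The smallest p was that of PPARG and PPARGC1B, with r = -0.47 and rho = -0.47 (permutation p = 0.0766 and 0.116). PPARA and PDK4 had r = 0.38 (permutation p = 0.24), with 0.41 in IB and 0.38 in IBxDU, opposite in sign to the IB newborns. PDK4 and FGF21 had r = 0.46 (permutation p = 0.104), and without IBxDU 748 and IB 816, the pigs with the most PDK4, r was -0.04. Those pigs carried PDK4 at 103 and 43.7 scaled RPKM, and their FGF21, at 0.346 and 1.16, was the highest of each type.

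The 2 newborns with high FGF21 also had the highest levels of CHAC1, SESN2, PSAT1 and ASNS, genes of the amino acid stress response named after their values were seen. CHAC1, an enzyme that breaks down glutathione, stood at 143 scaled RPKM in IBxDU 426 and 42.9 in IBxDU 402, against 1.99 to 26.6 in the other 10 newborns. SESN2, a sensor of leucine, stood at 62.1 and 15.4, against 0.466 to 8.42. PSAT1, an enzyme of serine synthesis, stood at 41.0 and 23.3, against 0.839 to 10.1, and ASNS, which makes asparagine, at 69.4 and 63.7, against 2.88 to 34.6. Other genes of the list stood otherwise. ATF3, a stress transcription factor, was at 18.1 and 84.0, against 15.8 to 664, with r = -0.52, EIF2AK3, a kinase of the unfolded protein response, had r = -0.21, and r with FGF21 was above 0 for 11 of the 15 genes of the list. Over the 12 newborns the relation with FGF21 had r = 0.81 and rho = 0.71 for CHAC1 (permutation p = 0.00285 and 0.0115, adjusted p = 0.018 and 0.0364), r = 0.87 and rho = 0.75 for SESN2 (permutation p = 0.00507 and 0.0276, adjusted p = 0.0241 and 0.0582) and r = 0.81 and rho = 0.89 for PSAT1 (permutation p = 0.0114 and 0.0011, adjusted p = 0.0433 and 0.00969). These 3 were the ones that passed by r among 15 genes of the FGF21 receptor and stress list, adjusted over 19 relations chosen for testing after values had been seen. By rho 5 of the 15 passed, CHAC1 and PSAT1 and, beside them, ASNS (rho = 0.77), MTHFD2 (0.70), an enzyme of mitochondrial folate use, and the receptor FGFR1 (-0.69). Without IBxDU 426 and IBxDU 402 r was 0.57 for CHAC1, 0.45 for SESN2 and 0.36 for PSAT1, so these relations rest largely on the 2 animals. The median r with FGF21 over the 15 genes was 0.50, against 0.00 over all genes. In the 7 lower-share newborns, which hold IBxDU 426 but not IBxDU 402, r was 0.85 for CHAC1, 0.94 for SESN2 and 0.80 for PSAT1. Only 2 IBxDU newborns are among these 7. They are IBxDU 426 and IBxDU 429, the highest (53.4) and the lowest (0.0689) of all newborns in FGF21, so these r do not stand apart from IBxDU 426. ALB, which marks liver, an organ that makes FGF21, was at 0.34 scaled RPKM in IBxDU 426 and 0.509 in IBxDU 402, within the 0.312 to 3.01 of all 12 newborns. Over these 12, r with FGF21 was -0.04 for ALB and, for the other liver markers, -0.34 for APOA1, -0.03 for TTR and 0.01 for FGB. The part of liver RNA in the FGF21 level was not tested.

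Between newborns PPARG was high where the fat cell markers PLIN1 and CIDEC were high. PLIN1, which coats the fat droplet, was 23.6 scaled RPKM in IBxDU 425 and 19.4 in IB 323, the animals with the most PPARG, and 1.18 in IB 431, the one with the least. Over the 12 newborns r was 0.92 and rho 0.85 for PLIN1 (permutation p = 0.00015 and 0.00075, adjusted p = 0.00142 and 0.00969) and r was 0.85 and rho 0.80 for CIDEC, another droplet protein (permutation p = 0.00012 and 0.00153, adjusted p = 0.00142 and 0.00969). LIPE, the hormone-sensitive lipase, had r = 0.57 and CFD, the serum protein adipsin, r = -0.14. Without IBxDU 425 and IB 323 r was still 0.87 for PLIN1 and 0.79 for CIDEC. Of 7 adipocyte markers sought, these 4 matched a gene, none at 0 in all libraries, and their summed level was 47.6 to 140 in IBxDU and 81.3 to 150 in IB newborns, and 91.7 to 235 in IBxDU and 121 to 279 in IB at 4 months. CFD made up most of this sum in most newborns, and IB 323, second in PPARG and PLIN1, had the lowest sum of the IB newborns, so the sum does not follow PLIN1 and CIDEC. In bulk muscle, more cells of a type and more RNA per cell cannot be told apart. Between ages PLIN1 and CIDEC were lower at birth, unlike the mean of PPARG, with log2 differences of birth over 4 months of -1.34 ± 0.42 and -2.28 ± 0.40 (limma, adjusted p = 0.00726 and 1.82e-05). Of the 4 adipocyte markers 0 were higher and 3 lower at birth, against 24.5% and 20.9% of all genes. Without scaling 1 was higher and 1 lower, where 67.4% of all genes were called. With quantile normalization 0 were higher and 2 lower, where 40.3% of all genes were called.

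The genes most like each of the 5 over the 12 newborns, by r of the log2 levels taken from the mean of the genetic type, are given as a description, since they were picked from the 8823 genes with a symbol. For PPARA they were WNT9A (r = 0.95), the splicing factor RBM39 (0.94) and hexokinase HK2 (0.92), which ran from 2.05 to 21.1 scaled RPKM. For PPARG they included DTX1 (0.92) and PLIN1 (0.92). For PPARGC1B they were SYDE2 (0.89), SCAF8 (0.88) and ASTE1 (0.87). For PDK4 they were the glutamine transporter SLC38A2 (0.90), the pantothenate kinase PANK1 (0.90), which starts the making of coenzyme A, and the integrin ITGA8 (0.87). For FGF21 they were SLC3A2 (0.92), a subunit of amino acid transporters, ARHGAP9 (0.90) and FUT1 (0.90). FUT1 and FGF21 are next to each other in RefSeq's Sscrofa11.1 annotation, and whether reads of the one were counted for the other was not tested.

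Over all 24 libraries the most alike genes also carry the difference between ages. They were PITPNC1 (r = 0.92), the AMPK subunit PRKAG2 (0.89) and PXDC1 (0.88) for PPARA, and those for PPARG included PCK1 (0.85), which in fat cells feeds glycerol into triglycerides, and CLDN4 (0.81). For PPARGC1B they were MECR (0.96), an enzyme of mitochondrial fatty acid synthesis, LRRC38 (0.95) and PLXNA2 (0.94). For PDK4 they were the stress gene GADD45G (0.91), DENND2A (0.90) and HSDL2 (0.89), and for FGF21 they were FUT1 (0.88), SESN2 (0.87) and XPOT (0.77), a carrier of transfer RNA.

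The other genes of the pathway went with the 5 genes in part. Of the PPAR targets 22 symbols matched, CPT1A and ACADVL to a pair of gene IDs each, and CREB3L3 was not tested. Of the 23 gene IDs tested, 17 were higher and 2 lower at birth, against 24.5% and 20.9% of all genes. Their median log2 difference was 1.01, against 0.10 over all genes. The highest were PLIN5, a droplet protein of oxidative muscle (3.81 ± 0.26), ANGPTL4, a secreted inhibitor of lipoprotein lipase (2.74 ± 0.28), and ACADVL, where ENSSSCG00000017947 gave 2.10 ± 0.28 at a low level and the more abundant ENSSSCG00000020972 gave 1.33 ± 0.16. The lower ones were the lipoprotein receptor VLDLR (-2.22 ± 0.23) and the uncoupling protein UCP3 (-0.70 ± 0.25). CPT1A, the entry enzyme of fatty acid oxidation in liver, was 1.67 ± 0.15 and 1.95 ± 0.18 for its 2 gene IDs, and CPT1B, the muscle form, matched no gene by symbol and was not analysed here. All these are log2 differences between the ages ± SE from limma, and called genes of the lists had adjusted p of 0.016 or less. Without scaling 20 of the 23 were higher and 1 lower, with a median of 1.86 against 0.91 over all genes, and with quantile normalization 19 and 1. Without scaling 67.4% of all genes were called in either direction, and with quantile normalization 40.3%.

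**Figure D5:**
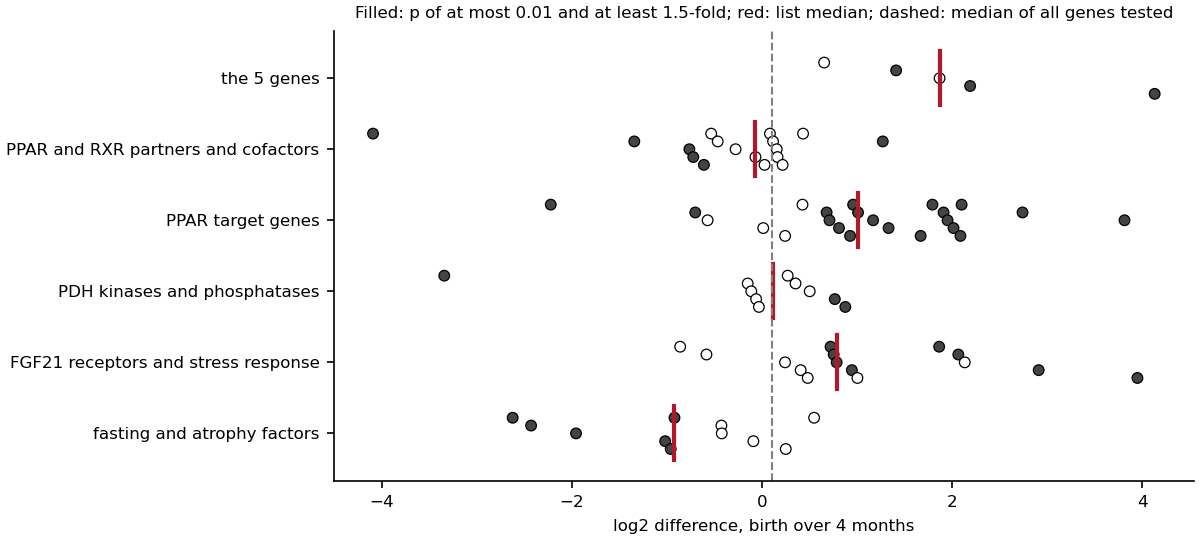
Log2 difference of birth over 4 months for the 5 genes and for 5 gene lists, 1 point a gene ID, filled where called, with the list median in red and the median of all genes dashed. Of the gene IDs of PPAR targets 17 of 23 are called as higher, against 24.5% of all genes. The partners and cofactors centre near the median of all genes.

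The partners of the receptors did not share that direction. Of 17 tested partners and cofactors, 1 was higher and 5 lower at birth, against 24.5% and 20.9% of all genes. The count of lower genes was thus not far from the share over all genes. The median log2 difference was -0.07. PPRC1, a relative of the coactivator, was higher (1.27 ± 0.25). RXRG, a partner of the PPARs, was 17.0-fold lower at birth (-4.09 ± 0.24), with 1.23 to 9.09 scaled RPKM in newborns and 31.3 to 76.7 in growing pigs, so the ages did not overlap, as in 8.65% of genes with the lower level at birth. NRIP1, a corepressor, was lower too (-1.34 ± 0.19), as were LPIN1 (-0.76 ± 0.18), CREBBP and EP300. PPARD, another PPAR, gave -0.07 ± 0.20 and RXRB -0.47 ± 0.09, the latter under the fold limit. The balance of this list turned with scaling: without it 9 were higher and 1 lower, at a median of 0.77 against 0.91 over all genes. Of all genes 67.4% were called without scaling. RXRA and PPARGC1A matched no gene by symbol and were not analysed here. In newborns PPARD was highest in IB 504 with 30.9 and IB 503 with 26.03 scaled RPKM, the animals that were also highest in PPARA. IBxDU 427 was close behind IB 504 in PPARA, at 30.2 against 30.4. Over the 12 newborns r of PPARD with PPARA was 0.74, and without IB 503 and IB 504 it was 0.30. This relation was not tested.

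The 4 kinases of pyruvate dehydrogenase did not move together. PDK3 was 10.1-fold lower at birth (-3.34 ± 0.11), without overlap of the ages, as in 8.65% of genes with the lower level at birth. PDK1 gave 0.50 ± 0.14 and PDK2 -0.03 ± 0.17, neither of them called. Per length, PDK4 at 278 scaled RPKM in newborns exceeded PDK2 at 60.5, PDK1 at 8.61 and PDK3 at 1.45, while at 4 months PDK2 at 62.7 exceeded PDK4 at 22.3, PDK3 at 15.7 and PDK1 at 5.84. The subunits PDHA1 (0.88 ± 0.13) and DLD (0.77 ± 0.12) were higher at birth. In this list, which leaves out PDK4, 7 of the 10 genes were not called, while 45.4% of all genes were called. Without scaling 9 of these 10 were higher, at a median of 0.97 close to that of all genes, and PDK3 was the 1 lower gene. Of all genes 67.4% were then called.

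Of the 15 receptor and stress genes of FGF21, 8 were higher and 0 lower at birth, against 24.5% and 20.9% of all genes. Their median log2 difference was 0.79. CHAC1 (3.95 ± 0.44), the serine synthesis enzyme PHGDH (2.91 ± 0.52) and the transcription factor ATF5 (2.06 ± 0.40) led. The ages did not overlap for CHAC1, as in 6.88% of genes with the higher level at birth. FGFR1, a receptor of FGF21, was higher (0.75 ± 0.13), and KLB, its coreceptor, gave -0.58 ± 0.33 and was not called. TRIB3 in this list moved with the kind of library, at 7.84 to 9.80 scaled RPKM in the 3 growing pigs with the higher share of listed genes and 0.199 to 0.416 in the other 9, and its part in the list's values was not tested. Of 11 factors of fasting and atrophy, by contrast, 0 were higher and 6 lower at birth, with a median of -0.92. The lower ones were led by the ubiquitin ligases TRIM63 (-2.62 ± 0.27) and FBXO32 (-2.43 ± 0.54) and the transcription factor FOXO4 (-1.96 ± 0.14). Within IB 1 of the 11 was higher and 4 lower, at a median of -0.53, where 43% of all genes were called. Within IBxDU 0 were higher and 6 lower, at -0.83, where 38.8% of all genes were called. Without scaling 2 of these 11 were higher and 3 lower, and the median was -0.08 against 0.91 over all genes, while 11 of the 15 stress and receptor genes were higher and 0 lower. Of all genes 67.4% were then called.

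Between the genetic types the lists held few called genes. At birth, when 2.36% of genes were called as lower in IBxDU, 4 of the 11 fasting and atrophy factors were lower in IBxDU: FBXO32 (-2.93 ± 0.56), FOXO3 (-1.39 ± 0.32), TRIM63 (-1.23 ± 0.31) and SESN1 (-1.15 ± 0.34), by the unadjusted limit, at adjusted p of 0.0882 to 0.142 by limma. The lipase PNPLA2 was the only 1 of 23 gene IDs of PPAR targets called (-1.14 ± 0.20, adjusted p = 0.0753 by limma). CREBBP and EP300 were called as lower among the 17 partners. At 4 months the droplet protein PLIN2 was the only called gene of the PPAR targets, with -0.78 ± 0.17 (adjusted p = 0.154 by limma), and 0 of the partners, kinases, stress genes and atrophy factors were called. The interaction of type and age was called for 3.99% of the 12441 genes tested. Of the 11 fasting and atrophy factors 4 were called as negative and 0 as positive, at a median of -0.93. Among the 23 gene IDs of PPAR targets 1 was positive and 1 negative, and of the 17 partners 0 and 1. For KLB, the coreceptor of FGF21, the interaction was 1.66 ± 0.55 (adjusted p = 0.21 by limma). KLB was the only one called among the 15 receptor and stress genes. In these lists 0 genes passed an adjusted p under 0.05 by limma for the interaction.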

How the data were processed

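Male pigs of 4 groups were compared, with 6 animals a group and 1 library an animal. The submitters' processing notes name CLC Genomics Workbench 7.0 and the build Sscrofa10.2. The authors deposited an RPKM value for each gene in each library, a unit that their text calls FPKM. Whether a counted unit is a read or a pair is not given in the sources used here. Whole reads were recovered from the deposited RPKM for 100% of the 17846 genes above 0, within 0.001 of a whole number, with library totals of 27.0 ± 4.15 M (mean, SD, n = 24).

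RPKM were scaled once, all 24 libraries together, to the mean library by the mean log ratio left after trimming 30% from each end. Genes whose mean exceeded 0.5 RPKM in any group of a comparison (the age groups where types were pooled) were tested on log2(scaled RPKM + 0.1) with limma 3.58.1 (eBayes with trend) in R 4.3.3, so that fold changes of low genes are understated. A gene was called at p of at most 0.01 and 1.5-fold; p-values were adjusted by Benjamini-Hochberg over all genes tested. Single genes were compared between types by exact permutation, and pairs of genes by 100000 permutations within genetic type (exact over pairings within 1 type). Replicates are separate animals. The limma fit and the permutation test of r within genetic type were tried on simulated data. The exact permutation tests and the permutation test of rho were not. Alternatives were other scalings, pseudocounts of 0.5 and 0.01, no filter or 1 RPKM, limma without trend, a 4-group fit, library kind as a covariate, lower-share libraries alone (share under 98%), voom on recovered reads, and each library left out. Leaving out 2 newborns together and the counts of the lists under other scalings were added after the data had been seen.

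Symbols came from a table of gene names (11450 IDs) and from the study's tables (402 more). The 5 genes and the lists were chosen with earlier results of these data known. Genes named beside the 5 are PPARD, the RXRs, PPARGC1A, CPT1B, ANGPTL4, UCP3, PDK1 to PDK3, FGFR1 and KLB, in each list the called genes of largest fold (no more than 3 a direction), and the 3 most alike by r, apart from names that are not reported here. CREBBP, EP300, SESN1, MTHFD2, SESN2, PSAT1, ASNS, TRIB3, CPT1A, CREB3L3, LIPE, ALB, APOA1, TTR, FGB, HBB, ALAS2, SLC4A1, ATF3, EIF2AK3, ACTA1, DES and ENSSSCG00000020972 (ACADVL) were named after their values were seen, as were the tests of FGF21 and PPARG against marker genes. Sequences and coordinates are not printed, since no genome of the files' build was used here.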

Additional observations from a re-analysis of the deposited data

Results flagged for a closer look

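In 6 of 20 groups of 6 animals 1 animal lay far from the rest by Dixon's test on scaled RPKM, where chance gives about 1 in 20 groups for normally distributed values. These values are not on a log scale, and over all genes above 0.5 RPKM in a group 10.6% of 44810 gene and group pairs passed the limit, 8.77% through the highest animal. Each of the 6 was the highest of its group. PPARA was 96.6 in IB 503 at birth, next to 30.4 in IB 504, and 30.2 in IBxDU 427 at birth, next to 13.5. PPARG was 7.95 in IBxDU 425 at birth, next to 3.87. PPARGC1B was 17.7 in IB 431 at birth, next to 8.26. PDK4 was 43.7 in IB 816 at 4 months, next to 10.04, and 102.9 in IBxDU 748 at 4 months, next to 28.1. FGF21 was not among them, because 2 IBxDU newborns were high together.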

How the results depend on the processing

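The count of the 5 genes called for birth over 4 months was 3 and became 5 at an adjusted p under 0.05 alone, as 65.6% of all genes passed, and 5 without scaling, where 67.4% of all genes (8214) were called, and ran from 3 to 5 when single libraries were left out (5 without IBxDU 427). In IB it was 3, became 5 without scaling, where 61.2% of all genes were called, and ran from 2 to 3 with single libraries left out, as it did in IBxDU. For IBxDU over IB at 4 months it was 0, became 1 among the lower-share libraries and ran from 0 to 1 (FGF21, without IB 903). No pair of genes passed under any alternative at either age. No paired analysis was possible because the replicate numbers are animal numbers and no animal is in 2 groups.

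Some differences that were not called changed sign, and the cause was not tested. For IBxDU over IB at birth, PPARA was 0.17 among the lower-share libraries and ran from -0.78 to 0.14 with single libraries left out, PPARGC1B from -0.35 to 0.0012 and FGF21 from -0.40 to 1.26. Without IBxDU 426 and IBxDU 402, chosen after seeing the data, FGF21 was -1.55, and its interaction -0.62. The interaction of PPARG was -0.32 among the lower-share libraries and ran from -0.019 to 0.49. In newborns, r of PPARA and FGF21 was -0.0015 without centring, -0.021 by Spearman's rho, -0.13 centred on type and library kind and -0.12 in lower-share libraries, and ran from -0.13 to 0.13. The r of PPARA and PPARGC1B was -0.022 with quantile normalization and ran from -0.12 to 0.26. PPARG and PDK4 had 0.33 in lower-share libraries and -0.42 to 0.26. PPARGC1B and PDK4 had 0.086 with quantile normalization, 0.010 without centring and -0.40 to 0.13. PPARGC1B and FGF21 had 0.066 in lower-share libraries and -0.32 to 0.17, and PDK4 and FGF21 ran from -0.40 to 0.23. In growing pigs PPARA and FGF21 had -0.10 with quantile normalization, -0.00090 at a pseudocount of 0.01, -0.35 without centring and -0.23 to 0.52. Without scaling PPARA and PPARG had 0.20 and PPARG and FGF21 0.093, and PPARG and PDK4 ran from -0.45 to 0.0026.

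Over all genes, calls for IBxDU over IB at birth went from 517 to 926 among the lower-share libraries, 864 without IBxDU 412, 314 without IBxDU 425 and 917 without IB 503, and calls at an adjusted p under 0.05 from 0 to 134 among the lower-share libraries, 254 without IBxDU 412 and 351 in the 4-group fit. At 4 months they went from 152 to 273 among the lower-share libraries and 259 without IBxDU 732. The interaction went from 497 to 329 without scaling, 1296 among the lower-share libraries and 814 without IBxDU 412, with 3, 0, 814 and 189 at an adjusted p under 0.05, and the age difference in IBxDU from 4757 to 7370 without scaling. With 6 animals a group and FGF21 on 2 to 26 reads at 4 months, differences of its low levels are limited by depth.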
